A study of Mus musculus with 6 samples.

Results

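Fc receptors are surface proteins that bind the constant part of antibodies and tie antibody to the cells that act on it, above all macrophages, monocytes and granulocytes. The genes described are Fcgr1, Fcgr2b, Fcgr3, Fcgr4, Fcer1g, Fcgrt and Pirb, chosen by gene symbol, and all 7 were among the 15686 genes of the deposited table. The activating receptors Fcgr1, Fcgr3 and Fcgr4 signal through Fcer1g, a shared chain with an activating (ITAM) motif that recruits the kinase Syk and starts phagocytosis and the oxidative burst. Fcgr2b carries an inhibitory (ITIM) motif, recruits phosphatases and sets the threshold of that response. Fcgrt, the neonatal Fc receptor, is an intracellular receptor that pairs with beta-2 microglobulin and spares IgG and albumin from lysosomal breakdown. Pirb is an ITIM receptor of myeloid and B cells that binds MHC class I rather than IgG. T cells are not known for Fc gamma receptors, so these genes are ordinarily read as genes of other cells in a spleen preparation.

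The study asked how CD4+ T cells differ in acute graft-versus-host disease, and took them with an isolation kit from spleens of mice given haematopoietic stem cells. There were 3 libraries labelled allogeneic (C57BL/6 donors, Balb/c hosts) and 3 labelled syngeneic (Balb/c donors and hosts), and the strain given for all 6 was Balb/c. As labelled, donor strain changes together with type of graft, so their parts in any difference below cannot be told apart. Age, sex, conditioning, dose and time after transplantation are not given in the labels, which also do not say whether each library came from 1 animal. P-values therefore measure only the spread between these libraries, which may be technical. Values are FPKM (fragments or reads per kilobase of gene, scaled to library depth), and an implied depth of 14.8 to 16.96 M reads (M, mega) stood behind each library.

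Checks of the libraries against their labels came first. Of 9 genes known to differ between C57BL/6 and Balb/c mice, 8 went against the labels, so every direction below is between libraries as labelled. Titles hold an A where the donor and host labels read syngeneic and an S where they read allogeneic, with no key to either letter. Were the group labels exchanged, every difference, ratio and comparison of levels between the groups given below would turn its direction. The 8 T cell markers measured, Cd4 included, were present in all libraries but lower in those labelled allogeneic, with a summed level of 389.4 to 411.8 FPKM against 825.4 to 859.6. All 15 macrophage markers were higher there, with a summed level of 605.5 to 627.3 FPKM against 142.2 to 157.0 and none at 0 in any library. The macrophage markers highest by level were C1qa (129.2 ± 5.88 against 38.4 ± 2.29 FPKM, SD, n = 3 each) and C1qb (103.2 ± 0.416 against 25.4 ± 1.49), and among T cell markers these were Cd4 (76.2 ± 2.72 against 183.1 ± 3.40) and Cd2 (62.1 ± 4.46 against 146.7 ± 8.53). In bulk RNA, fewer cells of a type and less RNA per cell cannot be told apart.

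The promoters of 3 of the genes are shown because of the 7 genes only these had a window with a motif searched for, an interferon element or the motif of a myeloid factor. Each window runs from 250 bases before to 50 bases after the RefSeq transcript start in build GRCm38.p6, 5′ to 3′ on the gene's strand, with motif matches in capitals. The windows are chr3:96293920-96294219 (minus strand) for Fcgr1, chr1:171018676-171018975 (plus strand) for Fcgr4 and chr7:3720333-3720632 (minus strand) for Pirb.
Fcgr1: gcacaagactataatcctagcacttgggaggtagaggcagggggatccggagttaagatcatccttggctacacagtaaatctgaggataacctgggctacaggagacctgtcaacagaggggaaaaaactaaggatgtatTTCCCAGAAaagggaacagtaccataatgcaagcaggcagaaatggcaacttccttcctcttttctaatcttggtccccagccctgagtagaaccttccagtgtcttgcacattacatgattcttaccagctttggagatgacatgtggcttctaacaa
Fcgr4: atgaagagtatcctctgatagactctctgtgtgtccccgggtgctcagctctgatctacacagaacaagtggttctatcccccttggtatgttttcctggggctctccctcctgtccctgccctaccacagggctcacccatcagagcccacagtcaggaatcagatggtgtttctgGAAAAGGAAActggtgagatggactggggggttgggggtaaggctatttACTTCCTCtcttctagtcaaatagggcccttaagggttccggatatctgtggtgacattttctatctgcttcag
Pirb: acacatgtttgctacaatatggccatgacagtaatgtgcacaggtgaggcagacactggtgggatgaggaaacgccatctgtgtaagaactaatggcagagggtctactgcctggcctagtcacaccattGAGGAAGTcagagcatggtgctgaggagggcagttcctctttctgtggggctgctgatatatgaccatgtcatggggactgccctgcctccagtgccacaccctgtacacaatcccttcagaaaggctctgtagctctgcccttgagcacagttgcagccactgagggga

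In the Fcgr1 window the capitals mark TTCCCAGAA, a match to the interferon-gamma activated site (letters searched TTCNNNGAA) that starts at -109 from the transcript start. In the Fcgr4 window they mark GAAAAGGAAA, a match to the interferon-stimulated element (searched as GAAA, any pair of bases, GAAA) at -73, and ACTTCCTC, a match on the other strand to the PU.1-type motif (GAGGAAGT) at -24. PU.1, encoded by Spi1, is the master factor of myeloid cells. The Pirb window held the PU.1-type motif itself, GAGGAAGT, at -120. The windows of Fcgr2b, Fcgr3, Fcer1g and Fcgrt held none of the 3 motifs. Both strands were searched, no matches overlapped, and the interferon-gamma activated site occurred in 8.3%, the interferon-stimulated element in 3.44% and the PU.1-type motif in 3.2% of all 32851 promoter windows. A match is a description of these letters and not a site shown to be bound.

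Of the 7 genes, 6 were higher in the allogeneic-labelled libraries and Fcgr4 did not pass the test. The rises ran from 1.34-fold for Fcgr3 to 3.92-fold for Fcgrt. On the log2(FPKM + 1) scale 6 of 7 genes were called higher by limma with Benjamini-Hochberg adjustment over 13235 genes, against 40.7% of all genes tested, and 0 were called lower, against 26.6% (67.4% of all genes were called in either direction). In those 6 genes the lowest library labelled allogeneic lay above the highest labelled syngeneic, against 43.4% of all genes (72.5% in either direction). The median log2 difference of the 7 was 0.91 and that of all genes tested 0.09. Macrophage markers moved in the same direction by more, with a median of 1.97, and their part in the rise of these genes was not tested.

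**Figure D1:**
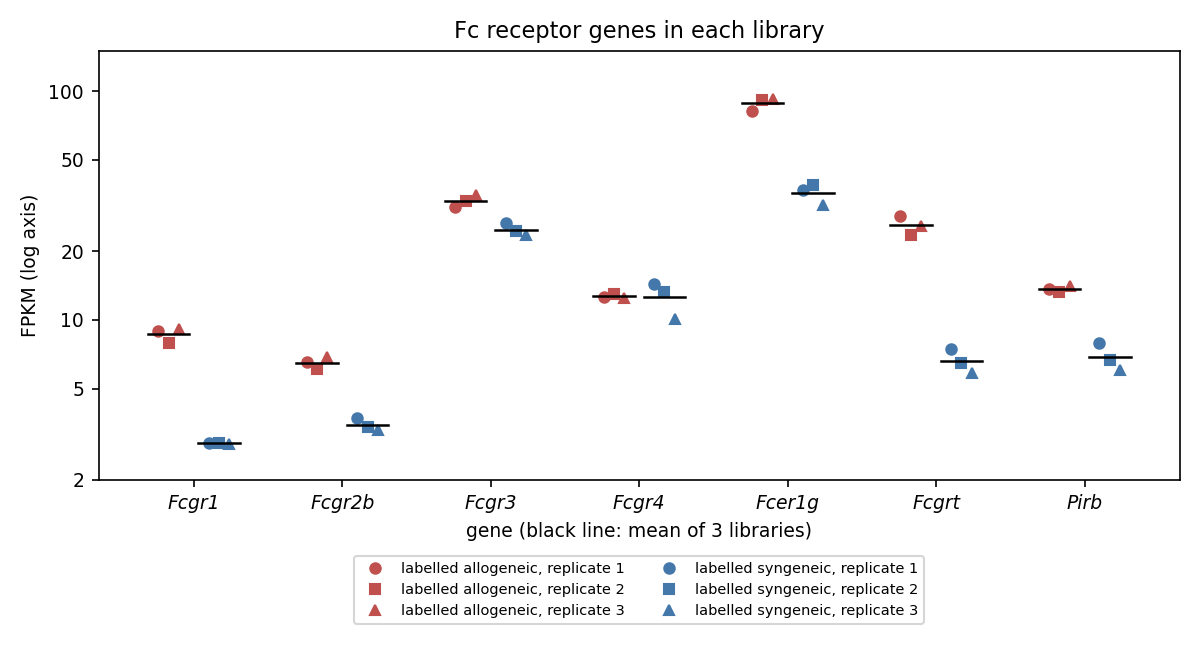
FPKM of the 7 Fc receptor genes on a log axis in each of the 6 libraries, 3 labelled allogeneic (red) and 3 labelled syngeneic (blue), with black lines at group means. The groups are separate for 6 genes, while the Fcgr4 libraries labelled allogeneic (12.5 to 13) lie within the range of the syngeneic-labelled ones (10.1 to 14.3).

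Among the activating receptors Fcgr1 rose most. Fcgr1 encodes the high-affinity IgG receptor of monocytes and macrophages (ENSMUSG00000015947, chromosome 3, 96282909 to 96293969, minus strand, build GRCm38). It stood at 8.98, 7.95 and 9.12 FPKM in the allogeneic-labelled libraries and at 2.89, 2.91 and 2.86 FPKM in the syngeneic-labelled ones. The syngeneic values had a coefficient of variation of 0.773%, and the groups did not overlap. The means were 8.68 ± 0.637 and 2.89 ± 0.0223 FPKM (SD, n = 3 each), a 3.01-fold difference (log2 difference 1.31, SE 0.0641, limma adjusted p = 5.1e-06). These values rest on 333 to 378 reads per library in the allogeneic group and 110 to 127 in the syngeneic group. The spread of the syngeneic values is below counting noise at such read numbers, so it does not measure precision.

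Fcgr3, the low-affinity activating receptor that mouse macrophages, neutrophils and NK cells carry, was the most abundant of the IgG receptors in both groups (ENSMUSG00000059498, chromosome 1, 171051174 to 171064935, minus strand). It was at 31.0, 33.2 and 35.2 FPKM in the allogeneic-labelled libraries and at 26.4, 24.5 and 23.4 FPKM in the syngeneic-labelled ones. The groups did not overlap but were closer than for Fcgr1. The means of 33.1 ± 2.11 and 24.8 ± 1.49 FPKM (SD, n = 3 each) differed 1.34-fold (log2 difference 0.41, SE 0.0618, limma adjusted p = 0.00105). Among its 50-base stretches of transcript, 9.58% also occur in Fcgr2b, so a small part of its reads cannot be assigned between these genes.

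Fcgr4, an activating receptor of monocytes, macrophages and neutrophils that favours IgG2 subclasses, was the exception (ENSMUSG00000059089, chromosome 1, 171018920 to 171029761, plus strand). It was at 12.6, 13 and 12.5 FPKM in the allogeneic-labelled libraries and at 14.3, 13.2 and 10.1 FPKM in the syngeneic-labelled ones. The latter lay on both sides of the allogeneic values. The means were 12.7 ± 0.276 and 12.5 ± 2.14 FPKM (SD, n = 3 each), and the log2 difference of 0.03 had a 95% interval of -0.24 to 0.30 (SE 0.113, limma adjusted p = 0.815). The upper bound lies under the log2 difference of each of the other 6 genes, but within the 95% interval of Fcgr3 (0.26 to 0.55). Differences between genes were not tested. Without syngeneic replicate 3, the lowest library, the log2 difference turned to -0.10 (limma adjusted p = 0.129). None of its 50-base stretches occurs in another gene.

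Fcer1g, the signalling chain on which surface expression of these 3 receptors depends, was the most abundant of the 7 genes in both groups (ENSMUSG00000058715, chromosome 1, 171229572 to 171234365, minus strand). Its values were 82.0, 91.5 and 92.6 FPKM in the allogeneic-labelled libraries and 37.0, 39.0 and 31.7 FPKM in the syngeneic-labelled ones. The lowest allogeneic library was above the highest syngeneic library by more than the range of either group. The means of 88.7 ± 5.87 and 35.9 ± 3.77 FPKM (SD, n = 3 each) differed 2.47-fold (log2 difference 1.29, SE 0.0845, limma adjusted p = 1.89e-05). It exceeded 95.9% of tested genes by mean level in the allogeneic group and 88.2% in the syngeneic group.

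Fcgr2b, the inhibitory IgG receptor of myeloid cells and B cells, rose with a smaller estimated difference than Fcgr1 (ENSMUSG00000026656, chromosome 1, 170958617 to 170976547, minus strand). It was at 6.53, 6.12 and 6.86 FPKM in the allogeneic-labelled libraries and at 3.71, 3.40 and 3.32 FPKM in the syngeneic-labelled ones. No libraries of the groups overlapped. The means of 6.50 ± 0.373 and 3.47 ± 0.205 FPKM (SD, n = 3 each) differed 1.87-fold (log2 difference 0.75, SE 0.0651, limma adjusted p = 6.93e-05). The B cell genes Ms4a1 and Blk were below 1 FPKM in all 6 libraries. Below that level they were nevertheless higher in the allogeneic-labelled libraries, with Ms4a1 at 0.603 ± 0.0868 against 0.102 ± 0.0549 FPKM and Blk at 0.746 ± 0.0957 against 0.118 ± 0.0897 (SD, n = 3 each, not tested). The pair of B cell markers that entered the test, Cd79a (-0.49) and Cd79b (-0.78), were lower on the log2 scale. The B cell markers thus did not move one way, and their part in the Fcgr2b difference was not tested. Fcgr2b shares 6.95% of its 50-base stretches with other genes, among them Fcgr3 (2.92%) and the antisense locus Gm38204 (1.88%).

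Pirb, the ITIM receptor for MHC class I, rose as well (ENSMUSG00000058818, chromosome 7, 3711409 to 3720391, minus strand). Its values were 13.7, 13.3 and 14.1 FPKM in the allogeneic-labelled libraries and 7.90, 6.67 and 6.03 FPKM in the syngeneic-labelled ones. The groups were apart by more than the range of either. The means of 13.7 ± 0.432 and 6.86 ± 0.950 FPKM (SD, n = 3 each) differed 2.0-fold (log2 difference 0.91, SE 0.0878, limma adjusted p = 0.000113). Its value is uncertain because 34.0% of its 50-base stretches also occur in neighbouring family members, such as Pira2 (16.8%). Pira2, a paired activating receptor that signals through Fcer1g, was itself at 3.23 ± 0.336 FPKM against 0.435 ± 0.216 (SD, n = 3 each).

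Fcgrt, the receptor that recycles IgG, showed the largest rise of the 7 (ENSMUSG00000003420, chromosome 7, 45092990 to 45103851, minus strand). It stood at 28.4, 23.6 and 25.6 FPKM in the allogeneic-labelled libraries and at 7.49, 6.48 and 5.87 FPKM in the syngeneic-labelled ones. Every allogeneic library exceeded every syngeneic library. The means of 25.9 ± 2.40 and 6.61 ± 0.819 FPKM (SD, n = 3 each) differed 3.92-fold (log2 difference 1.82, SE 0.096, limma adjusted p = 7.11e-06). In the order of levels it stood above Pirb and Fcgr4 in the allogeneic group and below both in the syngeneic group, where its libraries overlapped those of Pirb. That was the only pair of neighbours in either order whose libraries overlapped. From high to low the order was Fcer1g, Fcgr3, Fcgrt, Pirb, Fcgr4, Fcgr1 and Fcgr2b in the allogeneic group, and Fcer1g, Fcgr3, Fcgr4, Pirb, Fcgrt, Fcgr2b and Fcgr1 in the syngeneic group.

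Within the syngeneic group the genes shared their lowest library but not their highest. All 7 were lowest in syngeneic replicate 3, although Fcgr1 only by a small margin, and 13 of 15 macrophage markers and 6 of 8 T cell markers were lowest there too, against 32.0% of all genes tested, while 9 of 13 neutrophil and precursor markers were lowest in replicate 1. Fcgr1 and Fcer1g were highest in replicate 2 and the other 5 genes in replicate 1. In the allogeneic group 4 of the 7 were lowest in replicate 2, as were 10 of 15 macrophage markers, against 33.8% of all genes.

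The 4 IgG receptors stood in different proportions in the groups. Together they stood at 61.0 ± 2.41 FPKM in the allogeneic-labelled libraries and 43.7 ± 3.76 in the syngeneic-labelled ones (SD, n = 3 each). Fcgr1 made up 14.2% ± 1.01 of that sum against 6.64% ± 0.543, and Fcgr4 20.9% ± 1.04 against 28.6% ± 2.65. Fcgr2b made up 10.7% ± 0.461 against 7.97% ± 0.333, and Fcgr3 held the greater part in every library at 54.2% ± 1.56 against 56.8% ± 1.84.

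**Figure D2:**
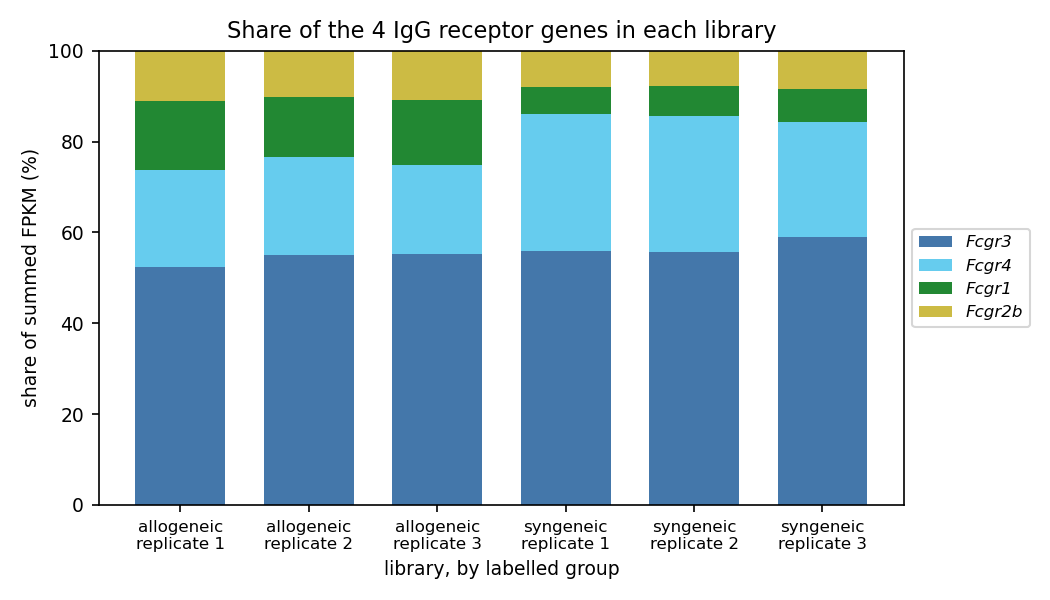
Share of the summed FPKM of Fcgr1, Fcgr2b, Fcgr3 and Fcgr4 (%) held by each gene in each of the 6 libraries, as stacked bars that add to 100%. Fcgr1 takes 13.2 to 15.2% in the allogeneic-labelled libraries and 6.12 to 7.21% in the syngeneic-labelled ones, and Fcgr4 19.7 to 21.6% against 25.5 to 30.2%.

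The balance of activating over inhibitory receptors is usually read as a ratio to Fcgr2b, which does not depend on how libraries are scaled. The ratio of Fcgr1 to Fcgr2b was 1.38, 1.30 and 1.33 in the allogeneic-labelled libraries and 0.780, 0.855 and 0.863 in the syngeneic-labelled ones. That ratio was higher in the allogeneic group, by 0.68 on the log2 scale. The ratios for the other activating receptors were lower there. Fcgr3 over Fcgr2b was 4.75, 5.42 and 5.13 against 7.11, 7.21 and 7.06 (log2 difference -0.48). Fcgr4 over Fcgr2b was 1.93, 2.13 and 1.83 against 3.85, 3.89 and 3.06 (-0.87). Fcgr3 over its signalling chain Fcer1g was 0.378, 0.363 and 0.380 against 0.713, 0.629 and 0.739 (-0.89). In none of the 4 ratios did the groups overlap, and each gave a two-sided exact permutation p = 0.1 (adjusted p = 0.1 over the 4), the smallest that 3 libraries against 3 allow.

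The direction of all 7 genes depended on the cells they were read against. Scaled to the CD3 chains of T cells, which moved the median of all genes to 1.01, all 7 were higher by 1.04 (Fcgr4) to 2.81 (Fcgrt) on the log2 scale, and limma called 86.2% of all genes higher and 4.13% lower. Scaled to the geometric mean of 15 macrophage markers, which moved the median of all genes to -1.73, all 7 had a negative log2 difference. It ran from -0.19 for Fcgrt, which did not pass the test (limma adjusted p = 0.0574), to -1.97 for Fcgr4. The other 6 were called lower on that scale, as were 93.8% of all genes, with 1.63% called higher. On FPKM as deposited 5389 genes were called higher and 3525 lower.

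**Figure D3:**
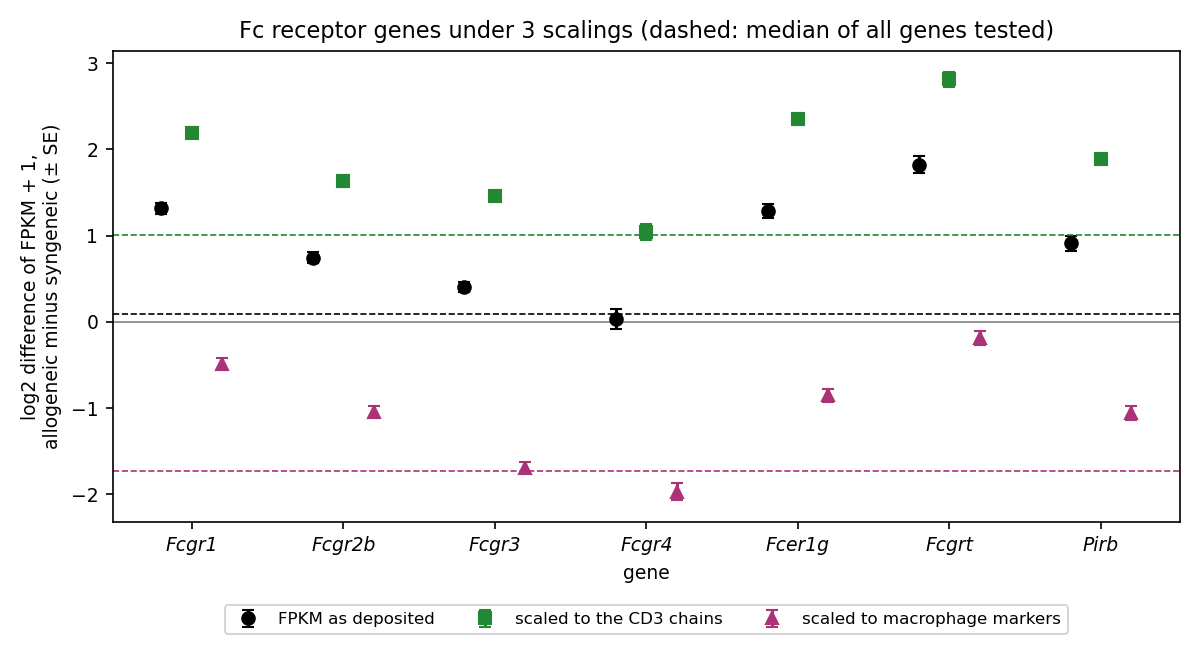
Log2 difference of FPKM + 1, libraries labelled allogeneic minus libraries labelled syngeneic (n = 3 each), for the 7 genes as deposited (black), scaled to the CD3 chains (green) and scaled to macrophage markers (purple), with bars for 1 SE and dashed lines at the median of all genes tested. Fcgrt has the highest value and Fcgr4 the lowest in all 3 scalings, and among these 3 only the macrophage scaling puts all 7 below 0.

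Per unit of macrophage marker RNA, the receptor genes were lower in the allogeneic-labelled libraries. The geometric mean of the 15 markers was 24.0, 22.8 and 23.2 FPKM in the allogeneic-labelled libraries and 5.25, 5.34 and 4.89 in the syngeneic-labelled ones. Fcgr3 stood at 1.29, 1.46 and 1.52 times that mean in the former and at 5.02, 4.59 and 4.79 times in the latter. Fcgr4 stood at 0.525, 0.573 and 0.540 times against 2.72, 2.47 and 2.07 times. Neither gene's groups overlapped. Fcgrt was closest to the markers, at 1.19, 1.04 and 1.10 times against 1.43, 1.21 and 1.2 times, and its groups were apart by less than the range of either.

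Monocyte markers gave a different reading for some of the genes. Of 7 such markers 6 were higher in the allogeneic-labelled libraries, Lyz2 (821.1 ± 19.3 against 227.7 ± 12.8 FPKM) being highest by level, and Ly6c2, a monocyte antigen also found on T cells, was lower, at 36.0 ± 6.18 against 220.3 ± 6.27 FPKM (SD, n = 3 each). The summed level of the list was 988.7 to 1033.7 FPKM against 471.0 to 503.5. Relative to the 6 markers other than Ly6c2, a choice made after the data were seen, Fcgr3 (-1.06), Fcgr4 (-1.44), Fcgr2b (-0.57) and Pirb (-0.47) were lower on the log2 scale. Fcgrt (0.50) was higher, and the groups overlapped for Fcgr1 (0.11) and Fcer1g (-0.17). With Ly6c2 included, as the list was first written, Fcgr3 (-0.47) and Fcgr4 (-0.85) were lower and Fcgr1 (0.70), Fcer1g (0.42) and Fcgrt (1.08) higher, with no overlap of the groups. The groups overlapped for Fcgr2b (0.015) and Pirb (0.12), so the direction of these genes and of Fcer1g depended on Ly6c2.

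Markers of other cells that can carry these receptors also moved between the groups. The counts below stand beside 40.7% of all genes tested called higher and 26.6% called lower. Of 13 neutrophil and precursor markers 11 were higher in the allogeneic-labelled libraries and 2 did not pass the test, with a summed level of 3341.2 to 3465.1 FPKM against 1015.2 to 1179.2, led by S100a9 (1222.4 ± 43.1 against 472.9 ± 54.4) and S100a8 (625.5 ± 17.6 against 290.9 ± 33.6). Of 7 mast cell and basophil markers, cells that use Fcer1g for the IgE receptor, 6 were higher and 1 lower (462.1 to 476.4 against 285.6 to 306.0 FPKM), with Prss34 (194.9 ± 1.73 against 160.4 ± 2.41) and Mcpt8 (173.8 ± 7.86 against 79.3 ± 6.12) highest by level. Of 6 dendritic cell markers 4 were tested, 2 higher and 1 lower (17.9 to 18.3 against 6.82 to 8.35 FPKM), with Flt3 at 11.1 ± 0.33 against 1.33 ± 0.247 and Itgax, which did not pass the test, at 3.95 ± 0.327 against 4.46 ± 0.356. The dendritic cell counts are near the shares over all genes. Of 3 NK cell markers measured Ncr1 was higher (9.29 ± 2.04 against 0.349 ± 0.0702 FPKM) and 2, among them Klrk1 (1.29 ± 0.272 against 2.61 ± 0.389), were lower. The endothelial markers measured, Egfl7 (2.01) and Stab2 (1.11), were higher on the log2 scale, as were 3 of 5 platelet markers, Pf4 (0.51) and Ppbp (1.10) among them, and all 9 red cell markers, led by Hbb-bs (6.14) and Hba-a1 (5.44). The 6 plasma cell markers were lower (489.9 to 510.6 against 807.0 to 833.5 FPKM), with Jchain (-0.38) and Xbp1 (-1.02) highest by level. No marker was at 0 in any library, and the part of these cells in the Fc receptor values was not tested.

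RNA of the ligand genes moved the other way. The IgG heavy chain genes Ighg1 (-7.15), Ighg2b (-6.56), Ighg2c (-9.12) and Ighg3 (-2.82) were all lower on the log2 scale in the allogeneic-labelled libraries, with Ighg2c, the main IgG2 ligand of Fcgr1 and Fcgr4 in C57BL/6 mice, at 16.3 ± 0.247 against 9604.6 ± 269.7 FPKM (SD, n = 3 each). Ighg2c is also one of the 8 strain genes that went against the labels, since Balb/c mice carry Ighg2a in its place. Its high level stood in the libraries labelled Balb/c for donor and host, opposite to what the labelled strain would give. The Ighg2c difference therefore cannot be read as one of ligand level alone. The part of strain in the Ighg1, Ighg2b and Ighg3 differences was not tested. The MHC class I genes H2-K1 (-1.66) and H2-D1 (-0.70), ligands of Pirb, fell as well. These genes vary between mouse strains, so a difference in strain and a difference in level cannot be told apart in them. B2m, the partner chain of Fcgrt, fell from 2733.8 ± 204.4 to 2038.4 ± 22.9 FPKM (SD, n = 3 each, log2 difference -0.42, limma adjusted p = 0.00162), while Fcgrt rose. B2m exceeded Fcgrt in every library.

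Genes of the signalling pathways below the receptors moved in both directions. Of 15 genes of activating Fc receptor signalling 10 rose and 4 fell in the allogeneic group, with a median log2 difference of 1.02 against 0.09 for all genes. Over all genes tested 40.7% were called higher and 26.6% lower, so the number that fell is near the share over all genes. The adaptor Card9 rose by 1.56 and the kinase Btk by 1.48, while the adaptor Blnk (-1.27) and the PI3-kinase subunit Pik3r5 (-1.06) fell. Of 10 inhibitory enzymes and adaptors 3 rose, 2 fell and 5 did not pass the test (median 0.06), which is near or below the shares over all genes of 40.7% higher and 26.6% lower. The lipid phosphatase gene Inppl1 rose by 0.74 and the adaptor gene Dok3 by 0.64, and the ubiquitin ligase gene Cblb (-1.27) and the phosphatase gene Ptpn11 (-0.26) fell. Inpp5d, whose product SHIP-1 carries the signal of Fcgr2b, was at 32.9 ± 0.806 against 31.5 ± 1.37 FPKM. Ptpn6, whose product SHP-1 carries that of Pirb, was at 104.8 ± 1.65 against 100.2 ± 2.70 FPKM (SD, n = 3 each), and neither passed the test. Many of these genes are also used in T cells and B cells.

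Receptors and adaptors built like the Fc receptors came next. Of 11 tested genes listed as ITAM adaptors or receptors that use them 10 rose and 1 fell (median 1.11). Over all genes tested 40.7% were called higher and 26.6% lower. Tyrobp, the adaptor most like Fcer1g in use, rose from 63.4 ± 4.57 to 192.6 ± 3.06 FPKM (SD, n = 3 each, log2 difference 1.59), and Clec4n, a fungal receptor that signals through Fcer1g, by 2.68. The 1 that fell was Hcst (by 1.01), an adaptor of NK and T cell receptors that itself has no ITAM. Of 13 genes listed with the other ITIM receptors 8 rose, 3 fell and 2 did not pass the test (median 0.45). The number that fell is near the 26.6% of all genes called lower. Sirpa, the macrophage receptor for CD47, rose by 2.07 and Pilra by 1.90, and Lilr4b (-1.57), Lilrb4a (-0.67) and the B cell receptor Cd22 (-1.28) fell. Lilr4b and Lilrb4a are close relatives of each other, and their reads may be shared. Only Lilrb4a carries the ITIM, so Lilr4b is in the list without being an ITIM receptor.

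Of 12 phagocytosis and oxidase genes 6 rose, 3 fell and 3 did not pass the test (median 0.18), which is near the shares over all genes of 40.7% higher and 26.6% lower. The kinase gene Pak1 rose by 2.21, while Rac2 (-0.45) and Dock2 (-0.44), which lymphocytes also use, fell. Of 3 other Fc or Fc-like receptor genes that entered the test, Trim21, the cytosolic IgG receptor, fell by 1.03 and the B cell genes Fcrla (3.50 ± 0.081 against 3.34 ± 0.604 FPKM) and Fcrl1 (1.43 ± 0.124 against 1.2 ± 0.28) did not pass the test. Of 11 myeloid and interferon regulators 7 rose and 4 fell (median 0.38), against 40.7% higher and 26.6% lower over all genes. The myeloid factors Irf8 (1.68) and Spi1 (1.43) were among those that rose. Ifng, the cytokine that induces Fcgr1 and Fcgr4 in macrophages, was at 10.6 ± 0.949 against 26.8 ± 1.98 FPKM (SD, n = 3 each), and its receptor gene Ifngr1 fell by 1.29.

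**Figure D4:**
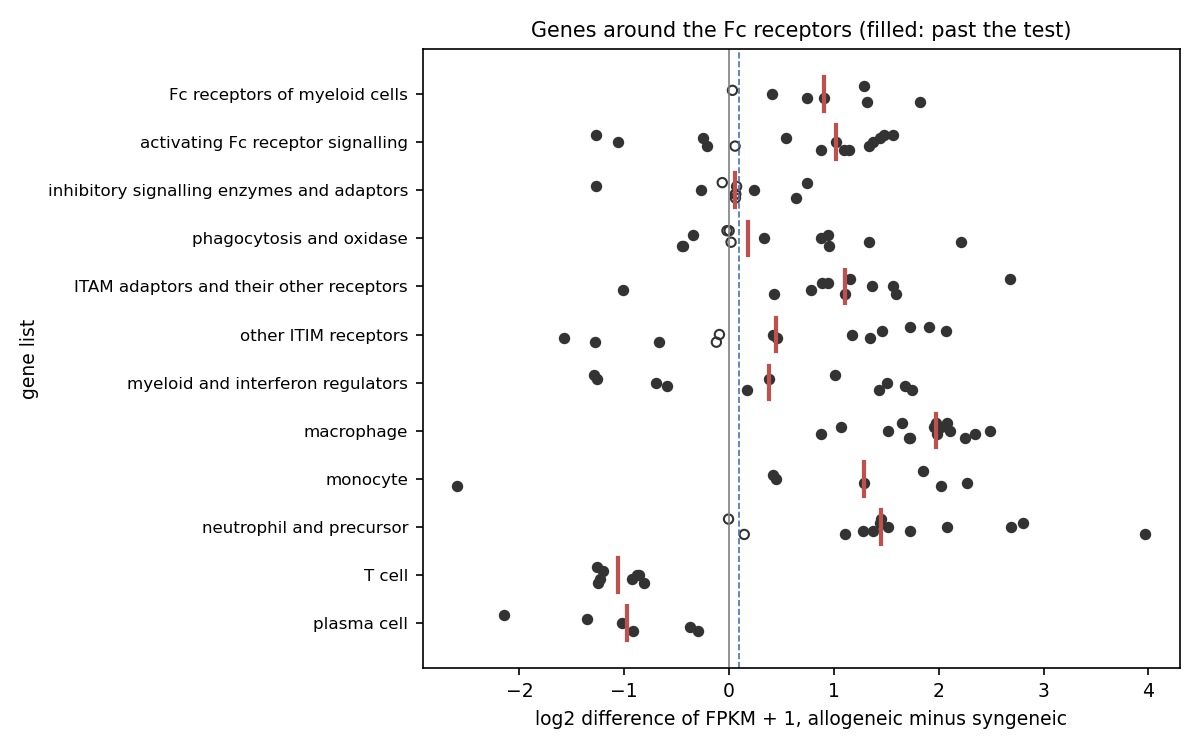
Log2 difference of FPKM + 1, libraries labelled allogeneic minus libraries labelled syngeneic (n = 3 each), for each tested gene of the lists named on the left, with filled points past the limma test, red lines at list medians and a dashed line at the median of all genes tested (0.09). The median of the Fc receptors (0.91) lies near that of activating signalling genes (1.02) and below that of macrophage markers (1.97).

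Genes named by a Gm number, a Rik name or a clone-type code, and immunoglobulin and T cell receptor segments, were left out of a search for nearest profiles. Among the other tested genes, the nearest over the 6 libraries were found by Euclidean distance between log2(FPKM + 1) values centred on gene means. They were Sulf2 (distance 0.095) and Klf4 (0.107) for Fcgr1, Wdr90 (0.057) and Nudcd2 (0.077) for Fcgr2b, and Tspan5 (0.060) and Dyrk3 (0.061) for Fcgr3. They were Nudt8 (0.117) and Mpc1 (0.128) for Fcgr4, Pparg (0.130) and Cenpn (0.132) for Fcer1g, Pip5k1b (0.125) and Ppic (0.217) for Fcgrt, and Nifk (0.078) and Vps26a (0.096) for Pirb. Among the 7 themselves, Fcgr2b and Pirb were nearest (0.256), followed by Fcgr1 and Fcer1g (0.303), and Fcgr4 and Fcgrt were farthest apart (2.21). All these distances share the same 6 libraries in 2 groups, and a gene's difference between the groups enters each of them.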

How the data were processed

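The authors deposited 1 table with 1 value per gene and library, and the values behave as FPKM, or equally RPKM, because fragments and single reads cannot be told apart. Libraries were built from total RNA after ribosomal RNA depletion, per the labels' protocols, and the submitters' processing notes name limma. Aligner, counter, annotation and build: not given in the sources used here. Values times merged exon length in GENCODE M21 (GRCm38) were whole multiples of 1 step per library, within 0.05 reads, for 13947 of 15686 genes (88.9%), which gave the implied depth and the reads of each gene. The sources used here mention no molecular identifiers, so read numbers may include amplification copies.

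The 13235 genes that reached 1 FPKM in 3 or more libraries entered a linear model of log2(FPKM + 1) in limma 3.58.1 (R 4.3.3), with variance moderated along a trend in mean level and p-values adjusted by the Benjamini-Hochberg method over all of them at a threshold of 0.05. Log2 differences of single genes, also after scaling to the CD3 chains or macrophage markers, are on that scale and understate low genes. Log2 differences of the 4 receptor ratios and of genes relative to monocyte markers used FPKM with nothing added. Replicates were apart by more than counting noise, and each counts as 1 sample. Ratios and distances used Python 3.11.15, scipy 1.17.1 and pandas 2.3.3, and plots matplotlib 3.10.9. Shared sequence is the share of 50-base stretches of GENCODE M21 transcripts found in another gene's transcripts on either strand.

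Genes, lists, tests and the naming rule were all chosen with earlier results of these data known. The rule took all 7 genes, up to 2 per direction from each list by size of the difference among those past the test (all genes of the ligand list), the 2 markers of each cell type with the highest mean level, and the 2 nearest profiles of each gene. Spi1, Inpp5d, Ptpn6, Pira2, Lilrb4a, Fcrla, Fcrl1, Ms4a1 and Blk were named outside it or after their values were seen, and some genes the rule takes are not reported here. Several listed genes were not analysed here because the table used holds no row for them. No set test was run. Alternatives were other scalings, filters, pseudocounts and variance models, a block for replicate number, each library left out in turn, and voom in limma on the recovered reads.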

Additional observations from a re-analysis of the deposited data

How the results depend on the processing

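The rises of Fcgr1, Fcgr2b, Fcgr3, Fcer1g, Fcgrt and Pirb kept their direction and stayed past the test in every alternative but scaling to macrophage markers, where the values were -0.49, -1.05, -1.69, -0.85, -0.19 and -1.06 on the log2 scale and 0 of the 7 genes were called higher. That scaling divides by genes that rose by more. Fcgr4 stayed short of the test except under the CD3 scaling (1.04) and the macrophage scaling (-1.97), and its direction turned to -0.05 after quantile normalization, -0.062 with equal upper quartiles, -0.064 without immunoglobulin genes and -0.057 with the median difference subtracted. Leaving out each replicate moved it between -0.10 and 0.125, and the cause was not tested. Relative to monocyte in place of macrophage markers, the log2 differences of Fcgr1, Fcgr2b, Fcgr3, Fcgr4, Fcer1g, Fcgrt and Pirb were 0.70, 0.015, -0.47, -0.85, 0.42, 1.08 and 0.12, and 0.11, -0.57, -1.06, -1.44, -0.17, 0.50 and -0.47 without Ly6c2. The 4 ratios between members kept their direction under both pseudocounts and without each library. Same-numbered libraries did not deviate together (correlations -0.031, 0.016 and -0.054), and with the replicate number as a block 6 of 7 genes were called, as in the fit without it, and 8673 of 13235 genes against 8914. All 7 genes had at least 110 reads in every library, so depth limits the comparison of the groups little, while the spread of the syngeneic Fcgr1 values lay below counting noise.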
